A study of Mus musculus with 28 samples.

Results

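The regions described here are stretches of the mouse genome where 2 histone marks met in lung tumours, H3K27me3 and H3K4me1, away from H3K4me3. They were chosen by measured values, namely the peak lists of these 3 marks. On chromosomes 1 to 19, bases inside peaks of at least 2 of the 4 H3K27me3 libraries were taken, gaps of up to 1 kb were closed, and regions of at least 200 bp were kept. A region became a member where it shared at least 1 bp with bases covered in at least 2 of the 4 H3K4me1 libraries and held no peak of any of the 4 H3K4me3 libraries. Of 17561 H3K27me3 regions, 224 met this rule, which is 1.28%. A further 15188 regions had neither H3K4me1 nor H3K4me3, 893 had both, and 1256 had H3K4me3 without H3K4me1. Here and below, a region without H3K4me1 is one that touches no base covered in at least 2 H3K4me1 libraries. Peaks of single libraries may still be present, in up to 242 of the 15188 regions per library.

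H3K27me3 is laid down by the Polycomb repressive complex on the histones of silenced genes, many of them developmental regulators. H3K4me1 marks enhancers, is written largely by the methyltransferases MLL3 and MLL4 (the gene of the latter is called Mll4 in these samples), and is present at enhancers whether they are active or not. H3K27ac is the mark of active enhancers and promoters, and H3K4me3 that of promoters. An element with H3K4me1 and H3K27me3 but no H3K27ac is commonly called a poised enhancer.

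Chromatin immunoprecipitation with sequencing (ChIP-seq) was performed on lung tumours of 2 types of mice. Both carry K-RasLSL-G12D, a mutant K-Ras allele that Cre switches on, and the second type (K-RasLSL-G12D;Mll4fl/fl) also has floxed Mll4 alleles. In both, Cre came from an adenovirus with the CMV promoter, which is active in many cell types, so neither the mutation nor the deletion was restricted to one cell type. Each mark had 4 libraries, and the names of the deposited files carry MLL in replicates 1 and 2 and RAS in replicates 3 and 4. The labels do not give the tumour type of a library, so MLL is read here as the floxed type and RAS as the other. The age, sex and strain of the mice are not given in the sources used here, and Mll4 deletion could not be checked in peak lists. The tissue was bulk tumour: 2 marks in one region may lie in different cells, and a mark in fewer cells and a weaker mark in all cells cannot be told apart. Nothing in the labels says that replicates came from separate animals, so p-values measure the spread between these libraries.

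The lists differed in number of peaks, in peak width and in bases covered. H3K27me3 peaks covered 10.8, 23.7, 102.3 and 32.4 Mb in replicates 1 to 4, so that replicate 3 stood apart. H3K4me1 covered 15.5 and 24.9 Mb in the MLL libraries and 46.8 and 55.6 Mb in the RAS libraries. H3K27ac covered 19.9 and 22.1 Mb in MLL and 114.5 and 112.4 Mb in RAS. H3K79me2, the mark of transcribed gene bodies, covered 114.3 to 154.2 Mb, and H3K9me3, the mark of constitutive heterochromatin, 2.05 to 5.88 Mb. The lists hold no read counts, the sequencing depth is unknown, and depth and genotype cannot be told apart where a whole list covers more bases.

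The 224 regions spanned 1.41 Mb, with a median length of 3972.5 bp (quartiles 1455 and 7081 bp). This compares with a median of 806 bp for the H3K27me3 regions without H3K4me1 or H3K4me3 and 7370 bp for those with both. A longer region is more likely to touch a peak by its length alone. The shortest member measured 201 bp, and 2 regions under 200 bp, the longer of them 192 bp, met all other criteria. The H3K4me1 bases that brought a region in numbered 1 to 2386 per region, with a median of 267.5 bp. In 12 members they were fewer than 50 bp and in 148 they were 200 bp or more. At the other border, 25 members lay within 1 kb of an H3K4me3 peak, and the smallest H3K4me3 overlap that kept a region with H3K4me1 out was 17 bp. Members were found on all 19 chromosomes, from 2 on chromosome 13 to 24 on chromosome 11. As a share of the H3K27me3 regions of a chromosome they ranged from 0.274% on chromosome 13 to 2.10% on chromosome 8, where 22 lay.

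H3K27me3 was present in all 4 libraries in 110 members, in 3 libraries in 54 and in 2 in 60. H3K4me1 was present in 4 libraries in 26 members, in 3 in 71 and in exactly 2 in 127. H3K27me3 sets the extent of a region, while H3K4me1 needs only 1 bp in it. The 2 marks can therefore not be ranked by these counts. Both marks were found in all 4 libraries in 16 members. The H3K4me1 peaks that touched members stood near the middle of their own lists, with median score percentiles of 47.2, 51.9, 46.1 and 51.7 in replicates 1 to 4. The H3K27me3 peaks stood higher, at 61.3, 65.0, 90.1 and 65.4. Scores are the authors' own values and were used only as ranks within a list.

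The lists of a replicate number share one identifier in their file names, and the 2 marks were therefore also compared within a number. Replicate 1 had H3K4me1 in 128 members, and 77 of these also had H3K27me3 in replicate 1. The same counts were 164 and 146 in replicate 2, 131 and 128 in replicate 3, and 148 and 108 in replicate 4. The rule, which takes bases in at least 2 of 4 libraries for each mark, makes a shared number likely, so these counts are a description. Both marks covered the same bases within at least 1 replicate number in 214 of 224 members and within at least 2 numbers in 137. The wide H3K27me3 list of replicate 3 carried part of this: over replicates 1, 2 and 4 alone, 182 members had shared bases in at least 1 number and 79 in at least 2. In 10 members the marks shared no bases within any number.

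The name poised implies that H3K27ac is absent, which the rule did not require. H3K27ac peaks were missing from all 4 libraries in 157 members, or 70.1%. The other 67 held an H3K27ac peak in at least 1 library, and 26 held one in at least 2. H3K79me2 was missing from all libraries in 190 members and H3K9me3 in 208. Free of both H3K27ac and H3K79me2 were 142 members, and 106 had no H3K27ac and carried H3K4me1 and H3K27me3 on the same bases in at least 2 replicate numbers. H3K27ac was still more frequent here than in the 15188 regions without H3K4me1: per library it was found in 2.23% to 18.3% of members and in 0.0461% to 1.21% of those regions. In the H3K27me3 regions with H3K4me3 it was found in 1.01% to 18.8% per library with H3K4me1 and in 1.43% to 15.7% without. Its frequency was therefore not particular to the members.

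H3K4me1 inside the regions was close in the MLL and RAS libraries, although the RAS lists covered more of the genome. The mark covered 4.19% and 5.86% of member bases in the MLL replicates 1 and 2, and 4.93% and 7.08% in the RAS replicates 3 and 4. The means were 5.02% ± 1.18 and 6.01% ± 1.52 (SD, n = 2 each), and the libraries of the 2 names overlapped. The direction of this small difference was not stable: it turned with regions built from at least 3 libraries, with lists of equal number, and without replicate 3 or replicate 4. Counted by region, H3K4me1 was found in 57.1% and 73.2% of members in MLL and in 58.5% and 66.1% in RAS, again with overlap. Over chromosomes 1 to 19 the groups did not overlap: H3K4me1 covered 0.643% and 1.03% of the span in MLL and 1.94% and 2.30% in RAS.

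Set against each library's own genome-wide cover, H3K4me1 was thus denser in the members in the MLL libraries. The ratio of cover in members to cover of the chromosomes was 6.52 and 5.67 in MLL and 2.54 and 3.07 in RAS, and the groups did not overlap. The difference between the names was 1.12 on the log2 scale and ranged from 0.72 to 1.68 over 12 alternative settings. Because H3K4me1 chose the members, this is a description and was not tested, and 2 libraries against 2 could in any case not give an exact permutation p below 0.333. The same order was seen in the other classes of H3K27me3 regions. The ratios were 7.19 and 7.59 in MLL and 2.91 and 2.59 in RAS with both H3K4me1 and H3K4me3, 1.23 and 1.62 against 0.305 and 0.306 with H3K4me3 only, and 0.205 and 0.215 against 0.0508 and 0.160 with neither. Peak width moved with it, since the median H3K4me1 peak measured 253 and 233 bp in MLL and 347 and 426 bp in RAS. The part of peak width in this ratio was not tested.

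**Figure D1:**
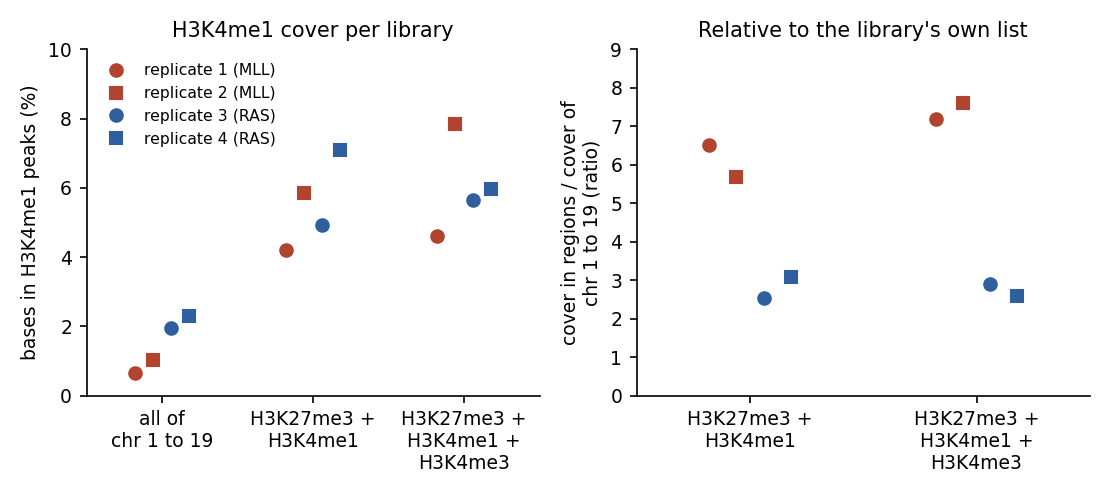
Left, percent of bases in H3K4me1 peaks for each library over chromosomes 1 to 19, in the 224 regions (H3K27me3 + H3K4me1) and in the 893 regions that also hold H3K4me3. Right, the cover in the regions divided by that of chromosomes 1 to 19. Each point is 1 library. In the 224 regions MLL and RAS overlap at left (4.19% to 7.08%), and at right both MLL libraries (6.52 and 5.67) lie above both RAS libraries (2.54 and 3.07).

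Single H3K4me1 regions were then followed. Bases covered in at least 2 of the 4 H3K4me1 libraries, with gaps of up to 1 kb closed, formed 36730 H3K4me1 regions, of which 232 touched a member. A peak in both MLL and no RAS library was found in 50 of the 232, or 21.6%, against 3.85% of all H3K4me1 regions. The reverse, a peak in both RAS and no MLL library, was found in 37, or 15.9%, against 23.8% of all. Among all H3K4me1 regions the RAS-only kind was the more frequent, and at the members the MLL-only kind was. In the H3K27me3 regions with H3K4me3 the shares were 14.0% and 4.18% of 934, so the excess of MLL-only regions was not particular to the members.

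The number of peaks was evened out by taking the 49595 best-scored H3K4me1 peaks of each library, and of the other marks also the number of the shortest list. Regions rebuilt in this way held 340 H3K4me1 regions in members. MLL-only regions made up 34.7% of them, against 7.89% of all, and RAS-only regions 4.71%, against 19.2% of all. The direction was therefore the same with lists of equal number.

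**Figure D2:**
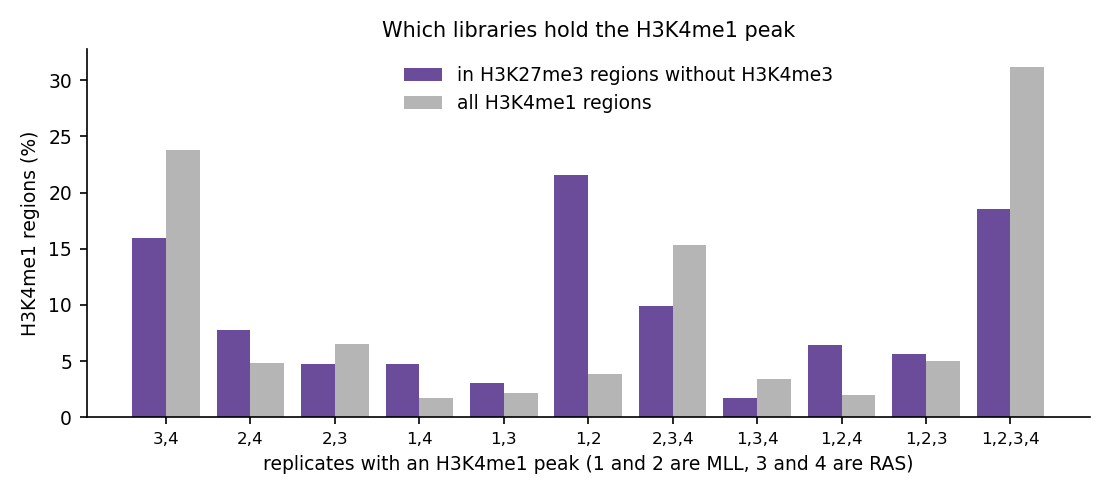
Percent of H3K4me1 regions by the set of replicates that hold a peak, for the 232 in the described regions (purple) and for all 36730 (grey). Replicates 1 and 2 alone account for 21.6% of the purple and 3.85% of the grey set, while all 4 replicates account for 18.5% and 31.2%.

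Of the 224 members, 43 (19.2%) had H3K4me1 in both MLL and no RAS library, 39 (17.4%) the reverse, and 142 had it in libraries of both names. Over all 36730 H3K4me1 regions, a different unit, the first 2 shares were 3.85% and 23.8%. The longest MLL-only member lies at chr4:115588772-115624542 (35771 bp; positions are on mm9, counted from 1). It held 983 and 662 bp of H3K4me1 in replicates 1 and 2 and none in replicates 3 and 4. Its H3K27me3 was extensive everywhere, at 13922, 24096, 34984 and 29442 bp. The next in length was chr17:36346722-36358871, with 331 and 301 bp of H3K4me1 in MLL and none in RAS. The third was chr5:144044727-144056525, with 300 and 870 bp. None of these 3 held any H3K27ac, H3K79me2 or H3K9me3.

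The longest member with H3K4me1 in RAS only was chr12:55538670-55563430 (24761 bp), with 181 and 420 bp of H3K4me1 in replicates 3 and 4. Its H3K27me3 covered 863 and 3499 bp in MLL and 24372 and 17028 bp in RAS. In chr7:25931879-25947371, H3K4me1 measured 317 and 287 bp, and in chr8:118932183-118942927 it measured 241 and 1649 bp. These 3 also lacked H3K27ac, H3K79me2 and H3K9me3 in every library. These 6 regions were picked as the longest of their pattern, so H3K4me1 fills less of them than of a typical member.

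The nearest H3K4me3, taken as bases covered in at least 2 of the 4 H3K4me3 libraries, lay at a median of 23.2 kb from a member (quartiles 7.57 and 63.9 kb). For the H3K27me3 regions without H3K4me1 or H3K4me3 the median was 39.8 kb. Against each library's own H3K4me3 list, the medians for members were 61.9, 22.4, 20.1 and 24.5 kb in replicates 1 to 4. They were 85.4, 39.1, 36.2 and 44.1 kb for the regions with H3K27me3 alone, larger in each of the 4 lists. The H3K4me3 list of replicate 1 covered only 3.12 Mb, against 26.4 to 32.3 Mb in the others. Absence of H3K4me3 was part of the rule for both sets, and no test was run. Within 5 kb of H3K4me3 lay 42 members, between 5 and 20 kb 61, between 20 and 50 kb 55, and 50 kb or more away 66. An H3K27me3 region that itself holds H3K4me3 lay within 5 kb of 28 members (12.5%), against 9.92% of the regions with H3K27me3 alone.

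H3K4me1 was then counted by distance class. The rule asks for H3K4me1 in at least 2 of 4 libraries, which holds the mean share over libraries at 50% or more in every class. Under 5 kb it was found in 59.5% and 73.8% of members in MLL and in 69.0% and 71.4% in RAS. At 50 kb or more the values were 56.1% and 69.7% in MLL and 59.1% and 65.2% in RAS. At 5 to 20 kb they were 59.0% and 77.0% against 55.7% and 63.9%, and at 20 to 50 kb 54.5% and 72.7% against 52.7% and 65.5%. The 2 names overlapped in all 4 distance classes. Replicate 3 varied most, between 69.0% under 5 kb and 52.7% at 20 to 50 kb.

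H3K4me1 cover per base was higher under 5 kb from H3K4me3 than at 50 kb or more, but did not fall steadily. It was 4.80% and 7.04% of member bases in MLL and 7.83% and 10.9% in RAS under 5 kb. At 50 kb or more it was 3.25% and 4.48% in MLL and 4.28% and 6.49% in RAS, lower in each of the 4 libraries. At 5 to 20 kb it was 5.18% and 7.17% in MLL, the highest of the 4 classes for both, and 4.48% and 5.55% in RAS, where replicate 4 had its lowest value. At 20 to 50 kb it was 4.16% and 5.77% in MLL and 4.56% and 7.23% in RAS. Members under 5 kb from H3K4me3 had a median length of 2288 bp, against 4427.5 bp at 50 kb or more, and the part of length in these values was not tested. MLL-only and RAS-only members numbered 5 and 6 under 5 kb, 12 and 8 at 5 to 20 kb, 11 and 12 at 20 to 50 kb, and 15 and 13 beyond, counts that were not tested. Over all H3K4me1 regions, a different unit and at any distance, these kinds made up 3.85% and 23.8%.

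Counted over all libraries of a mark, H3K27ac and H3K79me2 were found in a larger share of the members under 5 kb from H3K4me3 than of those farther away. H3K27ac was found in at least 1 library in 22 of 42 members (52.4%) under 5 kb. The share was 29.5% at 5 to 20 kb, 21.8% at 20 to 50 kb and 22.7% at 50 kb or more. H3K79me2 was found in 26.2%, 13.1%, 14.5% and 10.6% in the same order. These shares are over regions, which are not replicates, and were not tested. Cover per base did not have this order in every library: H3K79me2 in MLL was 3.91% and 5.39% under 5 kb and 6.89% and 6.72% at 20 to 50 kb, and H3K27ac in replicate 1 was 0.420% under 5 kb and 0.754% at 5 to 20 kb. Members under 5 kb from H3K4me3 were also shorter (median 2288 bp, against 4427.5 bp at 50 kb or more). H3K27ac peaks were in a mean of 16.7% of members under 1 kb long per library. At lengths of 1 to 5 kb, 5 to 10 kb and 10 kb or more the means were 15.7%, 3.69% and 6.62%. The part of length was not tested, and these shares were not taken for other H3K27me3 regions.

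**Figure D3:**
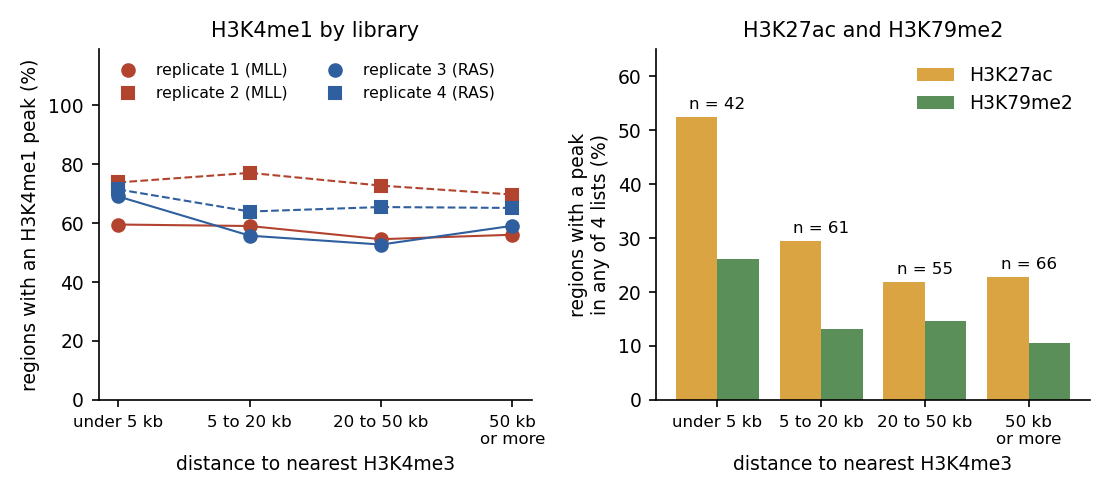
Left, percent of members with an H3K4me1 peak in each library, by distance to the nearest H3K4me3. Right, percent of members with an H3K27ac or H3K79me2 peak in any of the 4 libraries of that mark, with the number of members above the bars. H3K4me1 stays between 52.7% and 77.0% throughout, while H3K27ac stands at 52.4% under 5 kb and at 21.8% to 29.5% farther away.

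The largest of the members under 5 kb from H3K4me3 was chr7:51576143-51614673 (38531 bp), which lay 0.37 kb away. It carried H3K27me3 on 10996, 24747, 38311 and 31789 bp and H3K4me1 on 331, 976, 789 and 1489 bp in replicates 1 to 4. Both marks shared bases in all 4 replicate numbers, and H3K27ac was present only in RAS, on 330 and 1246 bp. At chr10:79813529-79831727, 2.17 kb from H3K4me3, H3K4me1 covered 366, 466 and 1336 bp in replicates 2, 3 and 4 and none in replicate 1. At chr1:75413643-75430655, 1.56 kb away, it covered 261 bp in replicate 1 and 521 bp in replicate 4 only. Far from H3K4me3, chr8:25619187-25656230 (37044 bp, 69.5 kb away) had 165, 310 and 1384 bp of H3K4me1 in replicates 2, 3 and 4. Its neighbour in length, chr9:61045150-61082000 (136.5 kb away), had 156, 269 and 404 bp in the same 3 replicates. Neither of these had any H3K27ac or H3K79me2, and the same was true of the 2 regions on chromosomes 10 and 1 close to H3K4me3. The longest region far from H3K4me3, on chromosome 11, held both marks and is described at the end.

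Within a region, H3K4me1 formed a single stretch in 163 members and at most 6 stretches in any. It filled a median of 8.53% of the region, and 50% or more of it in 29 members. In the 152 members of 2 kb or longer, the centre of the H3K4me1 bases lay at a median of 27.8% of the region's length from the nearer end. Even placement of a point would give 25%. The centre was nearer to H3K4me3 than the centre of the region in 91 of these 152 (59.9%). That share was 60.7% where H3K4me3 lay under 20 kb away and 59.3% where it lay farther. Of the H3K4me1 bases, 93.1% lay on bases covered in at least 2 H3K27me3 libraries, against 83.7% of all member bases.

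H3K27ac, H3K79me2 and H3K9me3 had no part in the rule and were compared with the 15188 H3K27me3 regions that lack H3K4me1 and H3K4me3. H3K27ac covered 0.364%, 0.122%, 3.21% and 2.91% of member bases in replicates 1 to 4. In the regions without H3K4me1 it covered 0.0552%, 0.0043%, 0.443% and 0.278%. Cover was higher in the members in 4 of 4 libraries, by 1.46 percentage points on average (SD 1.44, n = 4). The exact two-sided sign-flip test gave p = 0.125, the smallest that 4 libraries allow, and 0.188 after Benjamini-Hochberg adjustment over the 3 marks. A threshold of 0.05 could not be reached. The size varied with the setting: the mean difference was 0.345 percentage points with regions rebuilt without replicate 3, 0.553 with equal numbers of best-scored peaks, 0.651 with at least 3 of 4 libraries and 3.15 with no gap closed. H3K27me3 regions with H3K4me3 were not part of this test. In replicates 1 to 4, H3K27ac covered 0.420%, 0.0356%, 3.11% and 1.97% of their bases with H3K4me1. Without H3K4me1 the values were 0.574%, 0.0800%, 3.56% and 1.41%.

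H3K79me2 covered 4.64%, 4.64%, 1.46% and 1.15% of member bases and 0.598%, 0.585%, 0.224% and 0.164% in the regions without H3K4me1. The mean difference was 2.58 percentage points (SD 1.702, n = 4), with the members higher in 4 of 4 libraries and the same exact sign-flip p = 0.125 (adjusted 0.188). With regions built from at least 3 of 4 libraries, 43 members were left and the difference was -0.0737 percentage points (exact sign-flip p = 0.375). It was 0.0946 with regions rebuilt without replicate 3, 0.565 without replicate 4 and 1.32 without replicate 1.

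H3K9me3 covered 0.239%, 0.237%, 0.0273% and 0.493% of member bases and 0.139%, 0.188%, 0.0489% and 0.103% in the regions without H3K4me1. The difference of 0.129 percentage points (SD 0.181) was positive in 3 of 4 libraries (exact sign-flip p = 0.25, n = 4). Without replicate 4 it was -0.0939, and with the regions built without the H3K27me3 list of replicate 3 it was -0.0217, so its direction turned with single libraries. It also rested on 1 member, chr9:61693385-61727014, which held 68.9%, 44.5%, 100% and 49.7% of the H3K9me3 bases in members in replicates 1 to 4. Without that member, an alternative chosen after seeing the data, cover was 0.076%, 0.135%, 0% and 0.254%. The mean difference was then -0.0036 percentage points and positive in 1 of 4 libraries (exact sign-flip p = 1). Only 16 members held an H3K9me3 peak in any library.

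**Figure D4:**
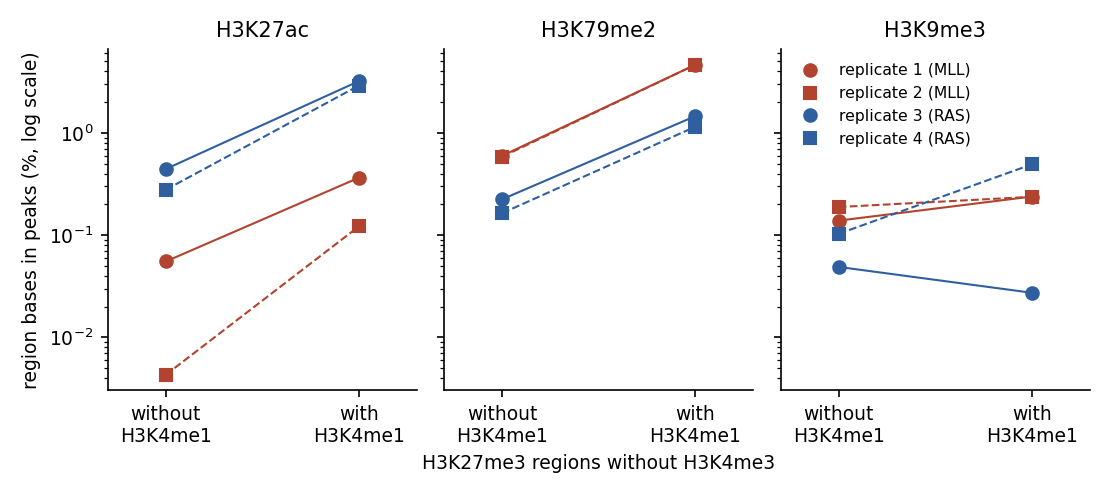
Percent of region bases in peaks (log scale) of 3 marks that the rule did not use, in H3K27me3 regions without H3K4me3 that lack H3K4me1 (15188) or have it (224). Each line is 1 library. H3K27ac and H3K79me2 are higher in the 224 regions in 4 of 4 libraries and H3K9me3 in 3 of 4, which falls to 1 of 4 without a single member.

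H3K27ac cover was highest in the short members. In the 51 members under 1 kb it covered 3.87%, 1.57%, 32.7% and 26.2% of bases in replicates 1 to 4, against 0.0865%, 0.00945%, 0.686% and 0.592% in the 8330 regions of that length without H3K4me1. In the 78 members of 1 to 5 kb it covered 0.655%, 0.582%, 11.6% and 10.7%. In the 61 members of 5 to 10 kb the values were 0.0395%, 0%, 0.198% and 1.67%, and in replicate 3 this was lower than the 0.332% of the regions of that length without H3K4me1. In the 34 members of 10 kb or more they were 0.340%, 0%, 1.34% and 0.404%, against 0.0233%, 0%, 0.139% and 0.00974%.

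Relative to the cover of its own list over the chromosomes, H3K27ac over all member bases was below the chromosomes' level. The ratio was 0.441, 0.133, 0.676 and 0.623 in replicates 1 to 4. Long members weigh most in it. In the 51 members under 1 kb the cover given above exceeded that of the chromosomes (0.826%, 0.917%, 4.75% and 4.66%) in 4 of 4 libraries, and in the 78 members of 1 to 5 kb it did so in both RAS libraries. For H3K9me3 it was 0.999, 1.45, 0.321 and 2.02, values that rest in large part on the chromosome 9 member just named, without which replicate 3 has no H3K9me3 in the members. The difference between the 2 marks was -1.31 on the log2 scale and did not pass the threshold (exact two-sided permutation test, p = 0.143, n = 4 each). With the replicate number as a block it was also -1.31 (exact sign-flip p = 0.25). The unpaired exact permutation p was 0.0286 with equal numbers of peaks and with H3K4me3 required in 2 libraries for exclusion. Blocked by replicate number, no setting with 4 libraries could give a sign-flip p below 0.125.

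H3K27ac was found in more members in the RAS libraries, whose H3K27ac lists had fewer but wider peaks (median width 2064 and 1713 bp, against 234 and 216 bp in MLL) and covered more bases. It was present in 15 and 5 members in MLL and in 40 and 41 in RAS. In 22 members (9.82%) both RAS libraries had more H3K27ac bases than both MLL libraries, against 1.33% of all H3K27me3 regions. The reverse held in 1 member (0.446%), against 0.0114%. Mean cover of the members was 0.243% in MLL and 3.06% in RAS. The other classes of H3K27me3 regions showed the same order, so it was not particular to the members. Their means were 0.0298% and 0.361% with neither H3K4me1 nor H3K4me3, 0.228% and 2.54% with both, and 0.327% and 2.49% with H3K4me3 only. Relative to each list, the log2 ratios in the members were -1.18 and -2.91 in MLL and -0.56 and -0.68 in RAS, a difference of -1.42 (exact permutation p = 0.333, the smallest for 2 against 2). H3K27ac replicate 2 decided its size: with that list left out the difference was -0.56, and with regions rebuilt without replicate 2 of every mark it was 0.09. The part of peak width in the counts was not tested.

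H3K79me2 went the other way. It was found in 26 and 24 members in MLL and in 15 and 17 in RAS, and covered 4.64% ± 0.0005 and 1.31% ± 0.219 of member bases (SD, n = 2 each). In bases covered over the chromosomes the H3K79me2 lists of the 2 names overlapped, at 139.9 and 154.2 Mb in MLL and 141.6 and 114.3 Mb in RAS. Their peak widths did not overlap: the median width was 2618 and 2805 bp in MLL and 1686 and 1106 bp in RAS, and the part of width was not tested. More H3K79me2 bases in both MLL than in both RAS libraries were found in 10 members (4.46%), against 0.9% of all H3K27me3 regions, and the reverse in 1 (0.446%), against 0.0968%. The regions without H3K4me1 showed the same order at a lower level (0.592% in MLL and 0.194% in RAS), so it was not particular to the members. The 2 longest members held 37.2% and 41.0% of the H3K79me2 bases of replicates 1 and 2. Without them the cover was 3.11%, 2.92%, 1.20% and 1.22%, and the MLL libraries were still above the RAS libraries.

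The H3K27me3 lists covered fewer bases in the MLL libraries, and H3K79me2 cover was higher in members where the same replicate lacked H3K27me3. In replicate 1, H3K79me2 covered 2.43% of the bases of the 134 members with H3K27me3 in that replicate and 17.9% of those of the 90 members without it. In replicate 2 it covered 3.41% (197 members) and 40.7% (27 members), and in replicate 4 it covered 0.619% (172 members) and 12.3% (52 members). Replicate 3 had only 5 members without H3K27me3. H3K79me2 cover was also higher in short members, at 23.4%, 20.3%, 14.7% and 16.9% in the 51 members under 1 kb and 3.33%, 3.67%, 0.648% and 0% in the 34 of 10 kb or more, and the part of length was not tested. H3K27ac was not split alike in all replicates. With and without H3K27me3 it covered 0.261% and 0.983% in replicate 1, 0.126% and 0% in replicate 2, 3.20% and 4.12% in replicate 3, and 1.38% and 34.9% in replicate 4. More H3K27me3 bases in both RAS than in both MLL libraries were found in 121 members (54.0%), about the share of all H3K27me3 regions (53.6%), and the reverse in 4 (1.79%), against 0.558%. In the 110 members with H3K27me3 in all 4 libraries, H3K27ac was found in any library in 17.3% and H3K79me2 in 4.55%. In the other 114 members these shares were 42.1% and 25.4%. The 110 members had a median length of 7018.5 bp and the 114 one of 1567.5 bp, and the part of length in these shares was not tested.

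The longest member, chr11:68070024-68115075 (45052 bp), shows both patterns. H3K27me3 covered 726 and 2093 bp in MLL and 44577 and 37326 bp in RAS. H3K79me2 covered 7611 and 9945 bp in MLL and none in RAS. H3K4me1 was present in all 4 libraries, on 1411, 1292, 491 and 1123 bp, and H3K27ac covered 1271 bp in replicate 1 and 1187 bp in replicate 3. The nearest H3K4me3 lay 83.0 kb away. The second longest, chr14:32196544-32237322 (40779 bp), had H3K27me3 on 914, 10539, 40499 and 34388 bp and H3K79me2 on 16695, 16843, 4724 and 0 bp. Its H3K4me1 covered 2309 and 2914 bp in MLL and 312 and 1028 bp in RAS. In both regions H3K27me3 covered more bases in each RAS library than in each MLL library, and H3K79me2 fewer.

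**Figure D5:**
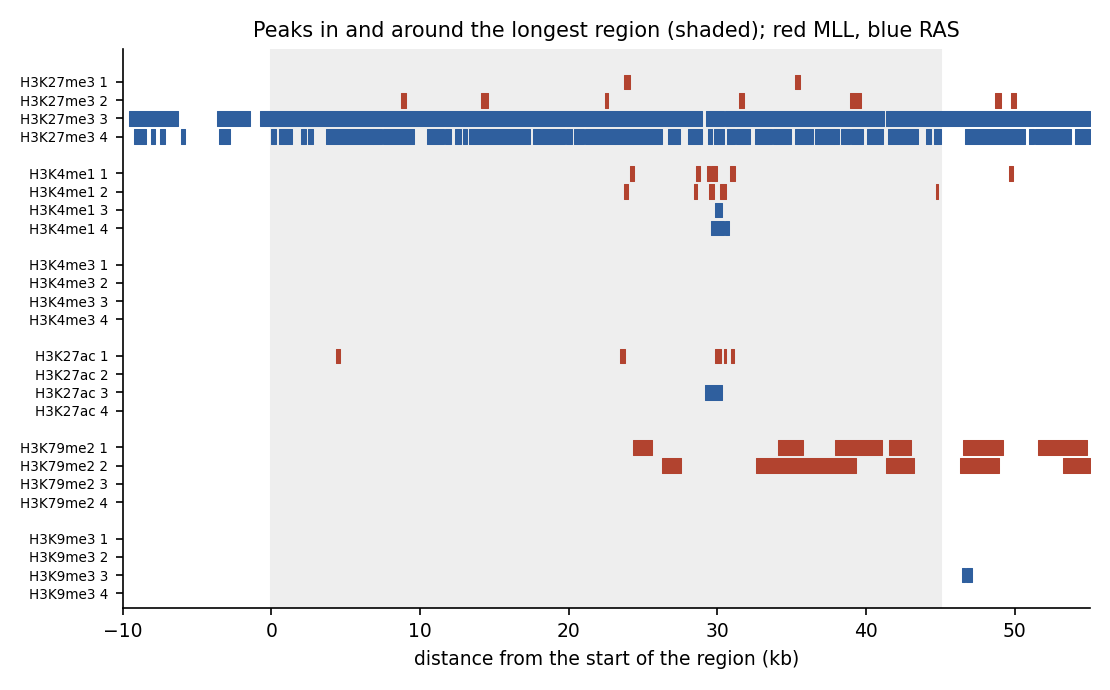
Peaks of the 6 marks in the 4 libraries each along the longest member (shaded, 45052 bp) and 10 kb to either side, by distance from its start. MLL libraries are red and RAS libraries blue. H3K27me3 fills the region in replicates 3 and 4 only, H3K79me2 peaks appear in replicates 1 and 2 only, and each of the 4 replicates has an H3K4me1 peak in the middle part of the region, while replicate 2 has a further one at its end.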

How the data were processed

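Each of the 24 deposited files is the authors' peak list of 1 library, with a score per peak. The peak names carry MACS, per the deposited files. The submitters' processing notes name CASAVA 1.7, Bowtie, MACS, deepTools and mm9, with settings not given in the sources used here. The file names set each library against another of the same identifier. The score, the authors' own value, starts at 50 in the deposited lists and only ranked or filtered peaks. The 4 input samples were not analysed. Peaks of a list were merged, and cover was the share of region bases in peaks. The chromosome span ran from the first to the last base of any peak. Tests were exact sign-flip and permutation tests over libraries. Interval code was checked against brute force on simulated data (Python 3.11.15, numpy 2.4.6). The gene table in hand is of another build than mm9, so no gene or sequence is given. The members and comparisons were chosen with earlier results of these data known. Named regions were the longest of all members, by library pattern, with H3K27ac in at least 2 libraries and by distance to H3K4me3.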

Additional observations from a re-analysis of the deposited data

Results flagged for a closer look

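In 15 groups of 4 libraries (3 measures of cover in the members for each of 5 marks), 1 library lay farther from the other 3 than Dixon's critical value allows, and chance flags about 1 in 20 groups. The H3K27me3 list of replicate 3 had a log2 ratio of member cover to chromosome cover of 4.53, against 5.71, 5.63 and 5.72 in replicates 1, 2 and 4. The same list covered 102.3 Mb of the chromosomes and had peaks with a median width of 1490 bp, where the remaining 3 H3K27me3 lists had 337 to 456 bp. Their part in the ratio was not tested.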

How the results depend on the processing

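The number of members went from 224 to 43 with at least 3 of 4 libraries, 338 with no gap closed, 75 when peaks below the median score were dropped, 339 with H3K4me3 in at least 2 libraries for exclusion and 148 with 200 bp of H3K4me1. It was 143 without the H3K27me3 list of replicate 3, an alternative chosen after seeing the data, and 123 to 154 with 1 replicate left out.

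The difference in H3K4me1 cover between MLL and RAS, -0.98 percentage points, had no stable direction. It was 0.47 with at least 3 libraries, 2.17 with equal numbers of best-scored peaks, 0.36 without the H3K27me3 list of replicate 3, 2.90 as a percent of regions, -2.53 with no gap closed and -2.71 to 1.22 with 1 replicate left out. Relative to each list, the log2 difference of 1.12 was 1.43 with at least 3 libraries, 1.68 with equal numbers, 1.43 without the H3K27me3 list of replicate 3 and 0.72 to 1.59 with 1 replicate left out.

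The H3K27ac difference from regions with H3K27me3 alone stayed positive in 14 alternatives, at 0.345 to 3.15 percentage points of bases in 13 of them and 10.6 as a percent of regions, and the median distance to H3K4me3 lay between 16723.5 and 32929 bp in 13. H3K79me2 turned to -0.0737 with at least 3 libraries and was 0.0946 (without replicate 3) to 1.88 with 1 replicate left out. H3K9me3 turned to -0.0217 (exact sign-flip p = 0.875) without the H3K27me3 list of replicate 3, to -0.0036 (exact sign-flip p = 1) without the member richest in it, and ranged from -0.0939 to 0.299 with 1 replicate left out. H3K27ac against H3K9me3 was -2.50 with equal numbers and -2.81 with H3K4me3 in at least 2 libraries (unpaired exact permutation p = 0.0286 in both), and -3.80 without replicate 1. With the replicate block it was -1.31 (exact sign-flip p = 0.25). H3K27ac in MLL against RAS, on the log2 scale relative to each list, was -6.59 to 0.088 with 1 replicate left out. With the percent of members with a peak in place of cover it was 0.21 (exact permutation p = 1). That value divides a share of regions by a share of bases, which are unlike measures. The shares of members themselves were higher in RAS, at 17.9% and 18.3%, than in MLL, at 6.70% and 2.23%. The cause of these changes was not tested. Log2 ratios gave no value where a list had no base in the members. The lists carry no read counts, so depth sets no stated limit.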
